A study of Mus musculus with 6 samples.

Results

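Mrc1-high macrophages were followed in single-nucleus RNA-seq libraries of the mouse tibial periosteum before and after fracture. These nuclei were chosen by their own counts of unique molecular identifiers (UMIs), each of which stands for 1 captured RNA molecule. A nucleus was kept when it held at least 2 UMIs of the immune genes Ptprc, Adgre1 and Dock2, at least 4 UMIs of Mrc1, Hpgds, Fcrls and F13a1 in sum (the M genes), more UMIs of these than of Arg1, Hmox1, Gpnmb, Msr1 and Clec4d (the A genes), and fewer than 2 of the osteoclast genes Ctsk, Acp5, Ocstamp and Oscar. The rule selected 623 of 8073 filtered nuclei (7.72%), which is 33.7% of the 1848 nuclei with at least 2 immune UMIs. The 16 genes of the rule were used to select the nuclei, so their levels are given as a description, with no test. They stayed among the genes counted in the comparisons over all genes below.

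All mice were of the C57BL6 strain (C57BL/6ScNj in the methods of the study), 12 weeks old, without a transgene, with males and females mixed, and every library pooled several mice. The 2 uninjured libraries each came from the scraped tibial periosteum of 4 mice with muscle and marrow removed. The 2 day 3 libraries, the day 5 library and the day 7 library came from periosteum collected together with the hematoma, from 4 to 9 mice each, at 3, 5 or 7 days after a tibial fracture without stabilization. Nuclei were sorted on a DNA dye and sequenced from the 3′ end, with no marker of immune cells in the sort. Since mice were pooled, the p-values below rest on a spread between libraries, estimated from many genes together, and not on that between animals.

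Macrophages are phagocytes that clear dead cells and debris, present antigen and secrete growth factors. Tissues hold resident macrophages, and monocytes that enter from blood after an injury also become macrophages. Mrc1 encodes the mannose receptor CD206, a scavenger receptor widely used to mark resident and repair-associated macrophages, and in bone such cells lie close to the bone surface and to vessels. F13a1 encodes the catalytic subunit of coagulation factor XIII, which cross-links fibrin. Hpgds encodes the hematopoietic prostaglandin D synthase, and Fcrls a scavenger-type receptor related to Fc receptors that is found on resident macrophages and microglia.

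The 4 M genes defined the population, so their proximal promoters are shown (RefSeq annotation, GRCm38.p6, the 250 bases before each annotated start, written 5′ to 3′ on the gene's strand). Capitals mark GAGGAA, a core recognized by the macrophage factor PU.1, and TGCTGA, a half-site of MAF factors, both searched on both strands and without overlap between these motifs.
Mrc1, chr2:14229164-14229413, plus strand: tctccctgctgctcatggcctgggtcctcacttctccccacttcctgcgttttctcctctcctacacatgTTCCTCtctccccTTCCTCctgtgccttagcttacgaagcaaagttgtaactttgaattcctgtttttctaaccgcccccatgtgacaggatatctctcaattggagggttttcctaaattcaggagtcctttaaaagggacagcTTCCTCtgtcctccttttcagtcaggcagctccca
F13a1, chr13:37050245-37050494, minus strand: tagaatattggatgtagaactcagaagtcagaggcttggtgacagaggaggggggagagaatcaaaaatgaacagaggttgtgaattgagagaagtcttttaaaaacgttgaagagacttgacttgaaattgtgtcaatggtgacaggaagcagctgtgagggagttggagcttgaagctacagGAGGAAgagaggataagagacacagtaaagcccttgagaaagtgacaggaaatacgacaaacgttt
Hpgds, chr6:65144731-65144980, minus strand: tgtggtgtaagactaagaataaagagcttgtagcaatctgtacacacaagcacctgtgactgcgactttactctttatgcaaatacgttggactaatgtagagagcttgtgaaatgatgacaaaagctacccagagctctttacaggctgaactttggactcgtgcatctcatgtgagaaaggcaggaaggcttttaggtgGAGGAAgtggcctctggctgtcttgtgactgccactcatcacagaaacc
Fcrls, chr3:87263525-87263774, minus strand: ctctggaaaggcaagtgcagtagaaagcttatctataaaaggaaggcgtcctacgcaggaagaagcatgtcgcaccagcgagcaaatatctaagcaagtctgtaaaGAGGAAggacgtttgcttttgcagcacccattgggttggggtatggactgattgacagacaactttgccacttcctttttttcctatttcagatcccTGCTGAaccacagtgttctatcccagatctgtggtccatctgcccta
The Mrc1 window held 3 GAGGAA matches, and the F13a1, Hpgds and Fcrls windows held 1 each. TGCTGA was found 1 time, in the Fcrls window. A 2nd annotated F13a1 promoter (chr13:37049214-37049463, minus strand) held 0 matches of either motif. Among 32851 mouse promoter windows of the same length, 23.3% held GAGGAA and 16.1% held TGCTGA, so these matches are a description of the sequences only.

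The members were unevenly spread over the libraries. There was 1 member in uninjured replicate 1, 35 in uninjured replicate 2, 50 in day 3 replicate 1, 308 in day 3 replicate 2, 218 at day 5 and 11 at day 7. The day 3 and day 5 libraries thus held 576 of the 623 (92.5%). Summed over members, the libraries held 5034, 206673, 137341, 2315195, 627170 and 18735 UMIs in the same order, so that 1 UMI was worth 199 CPM in uninjured replicate 1 and 53.4 CPM at day 7, but 0.432 CPM in day 3 replicate 2. CPM is the usual scaling of a gene's UMIs to the UMIs of all genes in the same nuclei. The median member held between 1247 UMIs (day 7) and 6649 UMIs (day 3 replicate 2). No barcode was shared between libraries among the members, and 0 to 7 barcodes were shared in each of the 15 pairs of libraries when all 13551 barcodes were counted.

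The label was checked against 9 macrophage genes that the rule did not use (Csf1r, Mertk, Fcgr1, C1qa, C1qb, C1qc, Cd163, Cx3cr1 and Spi1). All 9 were detected in the members of uninjured replicate 2, of both day 3 libraries and of the day 5 library, and 7 of 9 at day 7, where Cd163 and Cx3cr1 were at 0. Their summed level in these libraries lay between 1405 and 2682 CPM, which was 13.97 to 26.8 times the level in nuclei of the same library without any UMI of Ptprc, Adgre1 or Dock2. Nuclei led by the A genes (the same gates, at least 4 UMIs of A genes and no fewer than of M genes) held between 699 and 2558 CPM of the same 9 genes.

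The single member of uninjured replicate 1 went against the label. It held 0 UMIs of Mrc1 and Hpgds and 2 each of Fcrls and F13a1, with 0 of the 9 macrophage genes detected among its 5045 UMIs. It held 15296 CPM of the 10 myofibre markers, genes of the contractile apparatus such as Ttn, against 301 to 5468 CPM in the members of the other libraries. The uninjured values below therefore rest on the 35 nuclei of uninjured replicate 2, and tests, differences in share and counts of genes that use uninjured replicate 1 are also given without it.

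RNA of other cell types moved with the groups, as the plot of the marker lists shows. Myofibre markers summed to 3643 CPM in the members of uninjured replicate 2, 5468 and 1103 CPM at day 3, 301 CPM at day 5 and 480 CPM at day 7. Stromal markers, led by collagens, summed to 697, 903, 1824, 4429 and 747 CPM in the same order, and were thus highest at day 5, where the myofibre sum was lowest. In nuclei without immune UMIs, both lists stood higher in every library, at 3512 to 28716 CPM for myofibre and 1281 to 12425 CPM for stromal markers. Endothelial markers were between 0 and 236 CPM, neutrophil markers between 62.9 and 374 CPM, T and B cell markers between 0 and 189 CPM, and mast cell markers at or under 9.50 CPM in the members of these 5 libraries. At least 2 myofibre UMIs were found in 27 of 35 members of uninjured replicate 2 and 6 of 218 at day 5, and at least 2 stromal UMIs in 14 of 35 and 181 of 218. In day 3 replicate 2 these numbers were 170 and 284 of 308, and in day 3 replicate 1 they were 12 and 15 of 50. At least 2 neutrophil UMIs were found in 140 of 308 members of day 3 replicate 2 and 1 of 50 of day 3 replicate 1. For uninjured replicate 2 and day 5 they were found in 4 of 35 and 17 of 218. Members with fewer than 2 UMIs of each of these 6 lists numbered 5 in uninjured replicate 2, 27 and 12 in the day 3 libraries, 34 in the day 5 library and 5 in the day 7 library, and the part of such RNA in the values below was tested only by leaving out all other members.

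**Figure D1:**
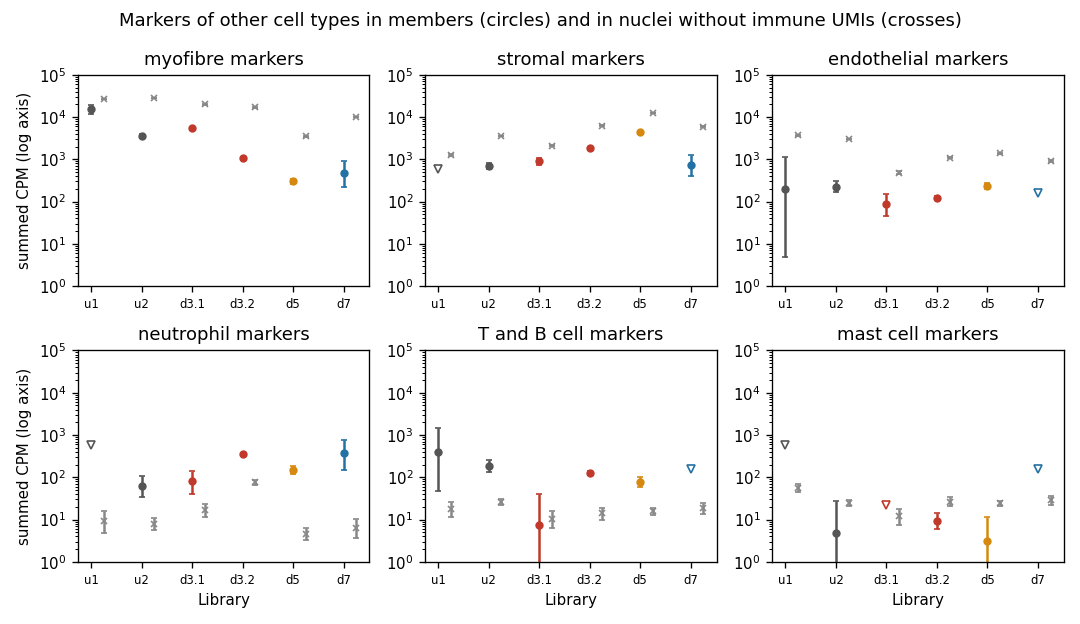
Summed level (CPM, log axis) of 6 marker lists of other cell types in the members of each library (circles) and in nuclei without immune UMIs (crosses); u is uninjured, d the day after fracture with its replicate. Bars are 95% Poisson intervals that cover counting error only, and open triangles mark the level of 3 UMIs where none was counted. Myofibre markers in members stood at 15296 CPM in uninjured replicate 1 and at 301 CPM at day 5, where stromal markers reached 4429 CPM.

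The libraries also differed in transcripts that depend on sex, while the sex of the mice in each library was not given. Xist, the transcript of the inactive X chromosome, stood at 77.4 CPM in the members of uninjured replicate 2, 291 and 1589 CPM at day 3, 2349 CPM at day 5 and 1761 CPM at day 7. Uty, a Y-linked gene, stood at 334 CPM in uninjured replicate 2, at 335 and 0 CPM in the day 3 libraries, at 87.7 CPM at day 5 and at 160 CPM at day 7. Uninjured replicate 2 thus held little Xist and day 3 replicate 2 no Uty among members, and the part of sex in the comparisons was not tested.

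The share of Mrc1-high macrophages among filtered nuclei was higher in each day 3 library than in each uninjured library. It was 0.155% (1 of 644 nuclei, exact 95% interval 0.00393 to 0.862%) in uninjured replicate 1 and 2.96% (35 of 1182, 2.07 to 4.09%) in uninjured replicate 2. At day 3 it was 6.64% (50 of 753, 4.97 to 8.66%) and 17.9% (308 of 1720, 16.1 to 19.8%). It was 9.00% (218 of 2423, 7.89 to 10.2%) at day 5 and 0.814% (11 of 1351, 0.407 to 1.45%) at day 7. The groups did not overlap, with means of 1.56% ± 1.98 (SD, n = 2) before fracture and 12.3% ± 7.97 (SD, n = 2) at day 3. The difference was 10.7 percentage points (9.31 without uninjured replicate 1), and no test was made, because 2 libraries against 2 cannot go below p = 0.333 in a two-sided exact permutation test. The intervals cover counting error only, and the day 5 and day 7 values have no replicate.

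Among immune nuclei the order was another one. The members made up 1 of 6 immune nuclei (16.7%) in uninjured replicate 1 and 35 of 68 (51.5%, exact 95% interval 39.0 to 63.8%) in uninjured replicate 2. They made up 33.6% (26.0 to 41.7%) and 30.8% (28.0 to 33.8%) at day 3, 39.6% (35.5 to 43.8%) at day 5 and 14.7% (7.56 to 24.7%) at day 7. With this denominator the day 3 mean was below the uninjured mean by 1.87 percentage points, and the difference was -19.3 percentage points without uninjured replicate 1, whose 6 immune nuclei gave the other uninjured value. All immune nuclei made up 3.34% ± 3.41 of filtered nuclei before fracture (5.75% in uninjured replicate 2) and 38.9% ± 27.1 at day 3 (SD, n = 2 each). The A-gene nuclei, which had no member in uninjured replicate 1, made up 0.508% of filtered nuclei in uninjured replicate 2 and 6.37% and 11.6% at day 3. At day 5 the Mrc1-high share of 9.00% stood beside 4.29% for the A-gene nuclei, and at day 7 the value of 0.814% stood beside 1.18%.

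Depth and the filters set part of these shares. With every nucleus thinned to 1000 UMIs before the rule was applied, the shares were 0% (0 of 383, which allows a share of up to 0.783%), 1.65%, 3.27%, 9.21%, 5.26% and 0.240%, in the order uninjured replicates 1 and 2, day 3 replicates 1 and 2, day 5 and day 7. A further 69 barcodes met the rule but held over 5000 genes, 64 of them in day 3 replicate 2, and stayed out as possible doublets. A doublet caller marked 28 of the 623 members, 24 of them at day 5. With a mitochondrial limit of 5% and no ribosomal limit, the day 3 shares were 6.64% and 10.2% (401 of 3927). The uninjured shares were then 0.153% and 2.74%, and the difference between the groups was 6.98 percentage points. Under these limits the share was 8.72% at day 5 and 0.319% (11 of 3444) at day 7.

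**Figure D2:**
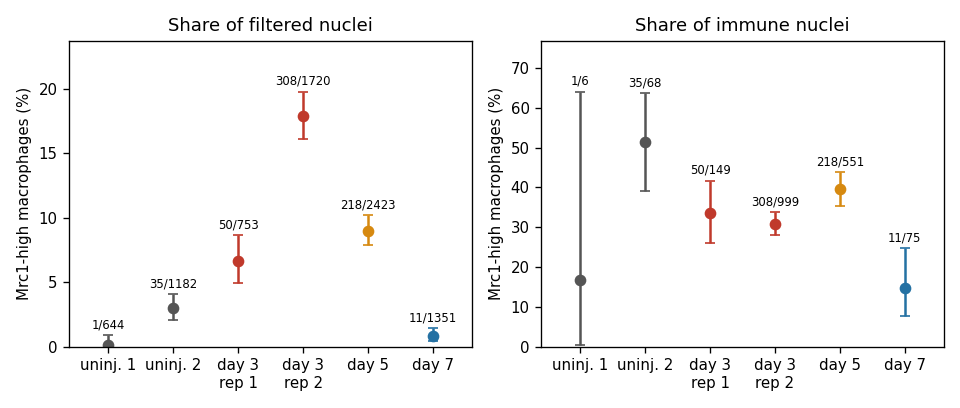
Share of Mrc1-high macrophages (%) in each library, of filtered nuclei (left) and of immune nuclei (right); points are libraries, bars exact 95% binomial intervals that cover counting error only, and numbers give members over nuclei. Both day 3 points (6.64% and 17.9%) lie above both uninjured points (0.155% and 2.96%) on the left, and below uninjured replicate 2 (51.5%) on the right.

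The members shared the M genes unequally. F13a1 was detected in 542 of 623 members (87.0%), Mrc1 in 514 (82.5%), Hpgds in 277 (44.5%) and Fcrls in 176 (28.3%). At least 3 of the 4 genes were found in 284 members (45.6%), 2 in 233 and a single one in 106, of which 76 carried F13a1 alone and 27 Mrc1 alone. Most members were not free of the opposing genes, as 508 (81.5%) also held a UMI of an A gene. At the threshold, 48 members held exactly 4 M UMIs (median depth 1640 UMIs) and 39 other nuclei just missed it with 3 (median depth 1749 UMIs), against a median of 3823 UMIs over all members. A further 203 nuclei held 4 or more M UMIs but no more of them than A UMIs.

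Mrc1 and F13a1 were abundant in the members of all libraries except uninjured replicate 1. Mrc1 stood at 3092 CPM in uninjured replicate 2, 1842 and 1920.4 CPM at day 3, 1354 CPM at day 5 and 3096 CPM at day 7. F13a1 stood at 4199.9 CPM in uninjured replicate 2, 1755 and 2742 CPM at day 3, 2955 CPM at day 5 and 2295 CPM at day 7. Both were thus lower at day 3 than in uninjured replicate 2, by 1.68-fold and 1.61-fold for Mrc1 and by 2.39-fold and 1.53-fold for F13a1, as a description of genes that chose the nuclei. Hpgds was uneven, at 145 CPM in uninjured replicate 2, 72.8 and 323 CPM at day 3, 285 CPM at day 5 and 747 CPM (14 UMIs) at day 7. Fcrls stood at 111 CPM in uninjured replicate 2 and between 43.7 and 185 CPM in the 4 injured libraries. These levels are compared between libraries within a gene, and not between genes.

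Mrc1 in other nuclei gave the background. With nuclei thinned to 1000 UMIs, Mrc1 was found in 59.2% to 81.8% of members and in 0.667% to 3.77% of nuclei without immune UMIs in the libraries other than uninjured replicate 1. In the A-gene nuclei Mrc1 stood at 163 to 605 CPM, below the members of each library. These differences follow from the choice of nuclei.

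**Figure D3:**
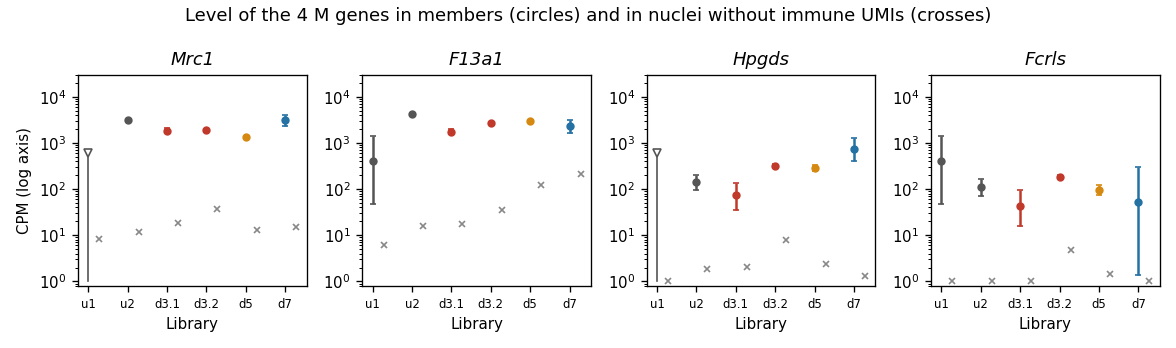
Level (CPM, log axis) of the 4 M genes in members (circles, coloured by day) and in nuclei without immune UMIs (crosses, at 1 where the level is lower), by library. Bars are 95% Poisson intervals that cover counting error only, and open triangles mark the level of 3 UMIs where none was counted; Mrc1 lies between 1354 and 3096 CPM in the 5 libraries with 10 or more members, and at 0 in the member of uninjured replicate 1.

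Outside the rule, 15 genes stood out most in members against all other filtered nuclei, as a description, among the 2880 genes with a UMI in at least 25% of members. They were Tbxas1, Aoah, Ms4a4a, Ly86, Nlrp1b, Cacna1d, Apobec1, Pik3ap1, Fyb, Epsti1, March1, Gm21188, P2ry12, Cd200r1 and Myo1f. Their mean log2 ratio over the 5 libraries with at least 10 members ran from 3.66 for Tbxas1 to 3.17 for Myo1f. Between libraries it ran from 2.12 to 4.93 for Tbxas1 and from 1.24 to 4.61 for Myo1f. Of the 8073 filtered nuclei, 5627 held no immune UMI, so these ratios do not set members apart from other immune nuclei. Tbxas1 encodes thromboxane synthase and was at 629 CPM in uninjured replicate 2, 320 and 513 CPM at day 3, 379 CPM at day 5 and 747 CPM at day 7. Aoah, an enzyme that inactivates bacterial lipopolysaccharide, was at 194, 138, 579, 515 and 587 CPM in the same order. P2ry12, an ADP receptor best known from microglia, was at 295, 58.2, 216, 140 and 267 CPM, and Cd200r1, an inhibitory receptor of myeloid cells, at 184, 211, 236, 271 and 480 CPM. For Tbxas1, P2ry12 and Cd200r1 no fold between day 3 and uninjured libraries passed the test below (adjusted p of 1 in each case).

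Day 3 was compared with uninjured by edgeR's quasi-likelihood test on UMIs summed over members in each library, over 2 libraries against 2. Of 3634 genes tested, 1 was called higher (0.0275%) and 5 lower (0.138%) at a Benjamini-Hochberg adjusted p of 0.05, and 158 had an unadjusted p under 0.05. The gene called higher was Gm28653, an unnamed transcript, and those called lower were Cd226, Kcnq1, Negr1, Tmod1 and Plxna4. No member of the macrophage gene lists was called. The median log2 fold change of all genes tested was 0.19.

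Cd226, which encodes a co-stimulatory receptor of T and natural killer cells that some myeloid cells also carry, fell by 6.96 on the log2 scale (SE 1.15, adjusted p = 5.31e-06). It stood at 199 CPM (1 UMI) in uninjured replicate 1 and 523 CPM (108 UMIs) in uninjured replicate 2, at 0 and 3.46 CPM at day 3, at 1.59 CPM at day 5 and at 0 CPM at day 7. The 108 UMIs came from 6 of the 35 nuclei, with 45 in a single one. Nuclei without immune UMIs held at most 0.389 CPM of it, and the A-gene nuclei none.

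Of the other lower genes, Negr1, Plxna4 and Kcnq1 were carried by few nuclei as well. Negr1, a cell adhesion molecule of neurons and stromal cells, fell by 4.54 (SE 0.92, adjusted p = 0.00148) from 397 and 271 CPM to 0 and 13.4 CPM, and 42 of the 56 UMIs of uninjured replicate 2 lay in 1 nucleus. Plxna4, a semaphorin receptor, fell by 3.71 (SE 0.88, adjusted p = 0.0162) from 397 and 237 CPM to 14.6 and 18.1 CPM, with UMIs in 7 nuclei of uninjured replicate 2. In nuclei without immune UMIs, Negr1 and Plxna4 also stood highest in uninjured replicate 2 among these 5 libraries, at 239 and 285 CPM. Tmod1, an actin-capping protein, fell by 3.93 (SE 0.89, adjusted p = 0.00703) and was found in 11 of the 35 nuclei. Kcnq1, a potassium channel subunit, fell by 5.98 (SE 1.34, adjusted p = 0.00703), with 18 UMIs in 5 of the 35 nuclei. Without uninjured replicate 1 Kcnq1 was not called (adjusted p = 0.607), while Cd226, Negr1, Tmod1 and Plxna4 were.

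Gm28653 rose by 11.10 (SE 2.49, adjusted p = 0.00703), from 0 UMIs in both uninjured libraries to 626 and 101 CPM at day 3, where the size of the fitted fold depends on the prior count. It was not called without uninjured replicate 1 (adjusted p = 0.994), and 7 of 12 alternatives lost the call. In day 3 replicate 1 its 86 UMIs lay in 5 nuclei, 64 of them in 1. Nuclei without immune UMIs held more of it, at 43.6 CPM in uninjured replicate 2 and 732 and 868 CPM at day 3.

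Without uninjured replicate 1 the same test rested on a single uninjured library, which was assumed to vary as the day 3 libraries do. It called 9 of 5070 genes higher (0.178%) and 43 lower (0.848%). Among them were Il4ra and Lpl of the macrophage lists, and Hmox1, an A gene of the rule, which is a description only. Il4ra, the receptor chain for interleukins 4 and 13, was higher by 3.42 on the log2 scale (adjusted p = 0.00656, range over the alternatives 0.000871 to 1.00). Lpl, the lipoprotein lipase, fell by 2.91 (adjusted p = 0.00536, range 0.000817 to 1.00).

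Receptors were described by their levels in each library, with 95% Poisson intervals that cover counting error only. Il4ra stood at 43.5 CPM (19.9 to 82.7) in uninjured replicate 2, 568 (449 to 709) and 315 CPM (293 to 339) at day 3, 155 CPM at day 5 and 267 CPM at day 7. The day 3 levels were 13.04-fold and 7.24-fold that of uninjured replicate 2. With nuclei thinned to 1000 UMIs, Il4ra was found in 3.03% of members of uninjured replicate 2 and in 42.9% and 26.2% at day 3, against 2.06%, 7.55% and 9.16% of nuclei without immune UMIs. It also stood higher at day 3 in nuclei without immune UMIs, at 97.9 and 88.0 CPM against 13.5 CPM. Csf1r, the receptor for the macrophage growth factor CSF1, stood at 290 CPM in uninjured replicate 2, 189 and 362 CPM at day 3, 182 CPM at day 5 and 214 CPM at day 7, so that the uninjured value lay between those of the day 3 libraries.

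Counted by intervals, 159 of 11644 genes (1.37%) lay higher in both day 3 libraries than in uninjured replicate 2 and 289 (2.48%) lower, with intervals that did not meet. This count leaves out uninjured replicate 1, needs 10 UMIs in total, and measures neither the spread between libraries nor that between nuclei. It includes genes of the rule, which chose the nuclei. These were Arg1, Hmox1 and Gpnmb among the higher ones, and Mrc1, F13a1, Adgre1 and Dock2 among the lower ones. In members with fewer than 2 UMIs of each other-cell list, 13 of 2900 genes lay higher and 54 lower, of which 10 and 33 were shared with the full count. These members, called low in other-cell UMIs below, can still hold 1 UMI of each list. They number 5 in uninjured replicate 2. The gene lists below are read against these shares, and the median log2 ratio over all genes of day 3 to uninjured replicate 2 was 0.00.

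Several genes of resident macrophages lay lower at day 3 than in uninjured replicate 2. Of 22 listed genes 20 reached 10 UMIs, 0 lay higher and 8 lower (Lyve1, Folr2, Cd209g, Clec10a, Mgl2, Vsig4, Igf1 and Cd36), and the median log2 ratio of the list was -1.14. Lyve1, Cd209g and Mgl2 reached 10 UMIs only through uninjured replicate 2. Clec10a, a galactose-binding lectin, stood at 174 CPM in uninjured replicate 2, 29.1 and 31.1 CPM at day 3, 28.7 CPM at day 5 and 0 CPM at day 7. Vsig4, a complement receptor of resident macrophages, stood at 96.8 CPM in uninjured replicate 2, 0 and 10.8 CPM at day 3 and 6.38 CPM at day 5. Lyve1, a hyaluronan receptor of perivascular macrophages, stood at 58.1 CPM in uninjured replicate 2 and at 0 or 0.864 CPM in all 4 injured libraries. The 12 UMIs of Lyve1 lay in 8 of the 35 nuclei, and those of Clec10a in 10.

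Other resident genes did not share this order over all libraries. Cd163, the receptor for hemoglobin and haptoglobin, stood at 256 CPM in uninjured replicate 2, at 189 and 60.5 CPM at day 3, at 47.8 CPM at day 5 and at 0 CPM at day 7, with intervals that met between uninjured replicate 2 and day 3 replicate 1. Stab1, a scavenger receptor, was between 427 and 679 CPM in these 5 libraries. Ms4a7 was lowest in uninjured replicate 2 and day 3 replicate 1 (179 and 153 CPM) and stood at 740 CPM in day 3 replicate 2 and 595 CPM at day 5. Igf1, a growth factor and one of the 8 lower genes at day 3, was at 271 CPM in uninjured replicate 2, 36.4 and 184 CPM at day 3, 547 CPM at day 5 and 480 CPM at day 7, and nuclei without immune UMIs held it at 82.2 to 729 CPM in the same libraries. None of the 10 genes of the list that entered the test of 2 libraries against 2, and none of the 17 tested without uninjured replicate 1, was called.

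**Figure D4:**
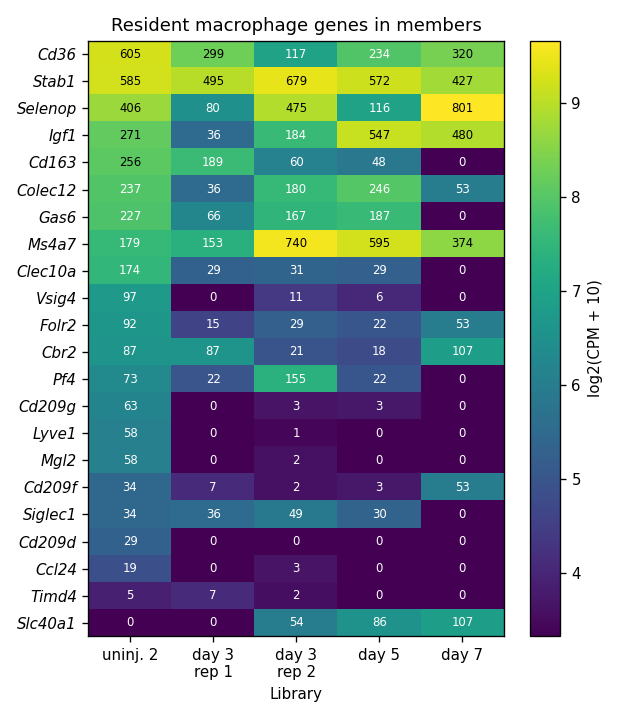
Level of the 22 resident macrophage genes in members by library, with CPM printed in each cell and log2(CPM + 10) as colour, ordered by the level in uninjured replicate 2, which the text compares. Lyve1, Cd209g, Mgl2 and Vsig4 are at or above 58.1 CPM in uninjured replicate 2 and at or under 10.8 CPM in the 4 injured libraries, while Stab1 stays between 427 and 679 CPM; 1 UMI is worth 53.4 CPM at day 7.

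Among 25 lineage transcription factors, all of which reached 10 UMIs, 0 lay higher and 5 lower at day 3 (Maf, Klf2, Klf4, Mef2c and Rbpj), with a median log2 ratio of -0.20. Rbpj, the DNA-binding partner of Notch receptors, was the one that also lay lower in members low in other-cell UMIs. It stood at 5071 CPM (4768 to 5387) in uninjured replicate 2, 1413 and 1470.3 CPM at day 3, 1422 CPM at day 5 and 1228 CPM at day 7, which made it 3.59-fold and 3.45-fold lower at day 3. It was found in 33 of 35 members of uninjured replicate 2. In the A-gene nuclei Rbpj stood at 337 CPM in uninjured replicate 2 and 569 to 722 CPM in the 4 injured libraries, and in nuclei without immune UMIs at 232 to 287 CPM in all 5. Without uninjured replicate 1 the change of -1.75 did not pass the test (adjusted p = 0.214, range over the alternatives 0.0989 to 1.00). Spi1, which encodes PU.1, was at 165 CPM in uninjured replicate 2, 204 and 319 CPM at day 3, 196 CPM at day 5 and 427 CPM at day 7.

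**Figure D5:**
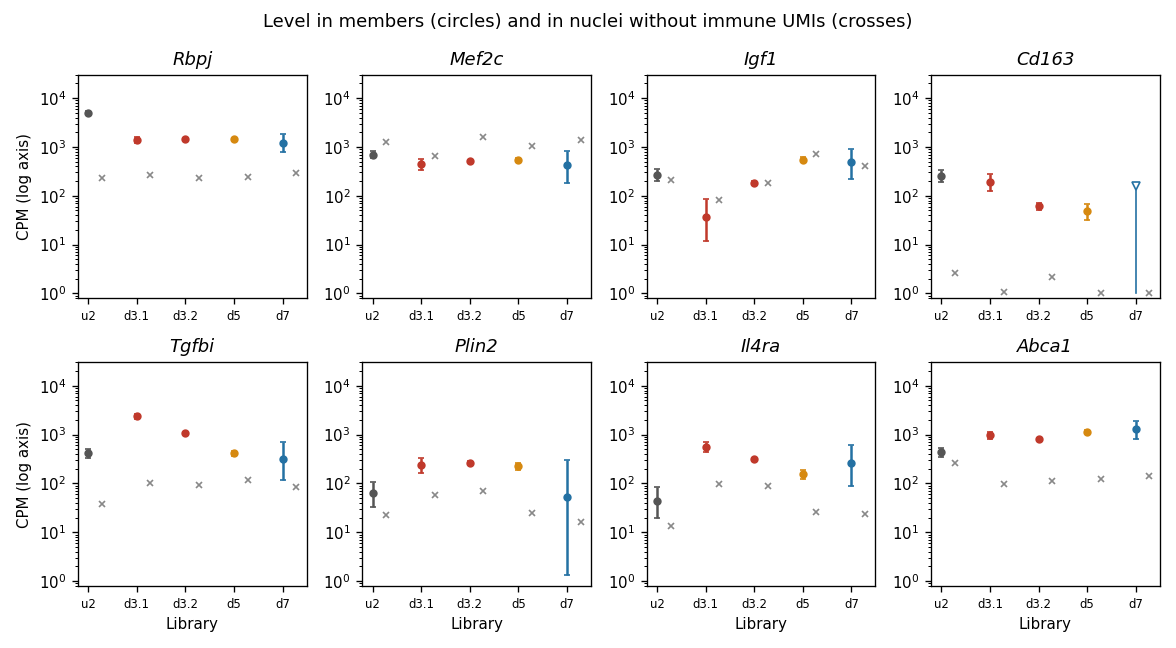
Level (CPM, log axis) of 8 genes in members (circles) and in nuclei without immune UMIs (crosses, at 1 where the level is lower) from uninjured replicate 2 (u2) to day 7 (d7). Bars are 95% Poisson intervals that cover counting error only, and the open triangle marks the level of 3 UMIs where none was counted. Rbpj lies at 5071 CPM in uninjured replicate 2 and at or under 1470.3 CPM in the 4 injured libraries, while Il4ra lies at 43.5 CPM in uninjured replicate 2 and at or above 155 CPM in each injured library.

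Stxbp6 and Psd3, which are in no list, also lay lower in members low in other-cell UMIs and were called without uninjured replicate 1. They were picked after their values were seen, for being found in most members of uninjured replicate 2. Psd3, an exchange factor for ARF6, stood at 3309.6 CPM in all 35 nuclei of uninjured replicate 2, 604 and 644 CPM at day 3, 1039.6 CPM at day 5 and 1174 CPM at day 7, and the change was -2.34 on the log2 scale (adjusted p = 0.0164, range over the alternatives 0.00343 to 1.00). Stxbp6 stood at 914 CPM in 26 nuclei of uninjured replicate 2, 72.8 and 106 CPM at day 3, 82.9 CPM at day 5 and 0 CPM at day 7, and the change was -3.27 (adjusted p = 0.000138, range 1.67e-06 to 1.00). Nuclei without immune UMIs held Stxbp6 at 322 CPM in uninjured replicate 2 and at 38.2 to 77.2 CPM after fracture, and Psd3 at 557 to 1147 CPM with no such order.

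Genes of dead cell uptake and lipid handling lay on both sides. Of 15 uptake genes with 10 UMIs, 3 lay higher at day 3 (Abca1, Abcg1 and Cd300lf) and 3 lower (Pros1, Elmo1 and Dock1), with a median log2 ratio of 0.17. Of 18 lipid genes, 3 lay higher (Abca1, Abcg1 and Plin2) and 3 lower (Alox5, Lpl and Cd36), with a median of -0.05. Abca1, which exports cholesterol, stood at 435 CPM in uninjured replicate 2, 968 and 830 CPM at day 3, 1148 CPM at day 5 and 1281 CPM at day 7. Plin2, which coats lipid droplets, stood at 62.9 CPM in uninjured replicate 2, 240 and 266 CPM at day 3 and 223 CPM at day 5. Mertk, a receptor for dying cells, stood at 373 CPM in uninjured replicate 2, 561 and 977 CPM at day 3, 955 CPM at day 5 and 1334 CPM at day 7, with intervals that met between uninjured replicate 2 and day 3 replicate 1. Lpl stood at 300 CPM in uninjured replicate 2, where 34 of its 62 UMIs lay in 1 nucleus, and at 51.0 and 33.7 CPM at day 3.

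Among matrix genes, Tgfbi lay higher at day 3. It encodes a secreted adhesion protein and stood at 411 CPM (329 to 509) in uninjured replicate 2, 2352 and 1071 CPM at day 3, 413 CPM at day 5 and 320 CPM at day 7. The day 3 levels were 5.72-fold and 2.60-fold that of uninjured replicate 2, and Tgfbi lay higher in members low in other-cell UMIs as well. Without uninjured replicate 1 the change of 2.17 on the log2 scale did not pass the test, and no alternative passed it. Of 17 matrix and protease genes 1 lay higher and 2 lower (Fn1 and Plau), with a median log2 ratio of 0.50. The A-gene nuclei held Tgfbi at 258 CPM in uninjured replicate 2 and at 1559 and 1009.99 CPM at day 3.

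Among secreted growth factors 0 of 15 lay higher at day 3 and 2 lower (Igf1 and Pdgfb). Pdgfc, a ligand of the PDGF receptor alpha of stromal cells, was level at 358 CPM in uninjured replicate 2 and 342 and 343 CPM at day 3, and stood at 639 CPM at day 5 and 1281 CPM at day 7, where 17 of its 24 UMIs lay in 1 nucleus. Of 16 glycolysis and hypoxia genes 2 lay higher (Hif1a and Pfkfb3) and 0 lower, with a median log2 ratio of 1.02. Hif1a stood at 116 CPM in uninjured replicate 2, 255 and 271 CPM at day 3 and 590 CPM at day 5, and nuclei without immune UMIs held it at 116, 165, 293 and 569 CPM in the same libraries. Of the 14 inflammatory, 14 interferon response, 13 immediate-early, 15 iron and haem and 18 mitotic genes with 10 UMIs, 0 lay apart in either direction.

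The day 3 libraries differed from each other in monocyte and antigen presentation genes. Ccr2, the receptor through which monocytes enter injured tissue, stood at 624 CPM in uninjured replicate 2, where 58 of 129 UMIs lay in 1 nucleus, at 7.28 CPM (1 UMI) in day 3 replicate 1 and at 485 CPM in day 3 replicate 2. At day 5 it stood at 70.2 CPM and at day 7 at 0 CPM. H2-Aa, a chain of the class II molecule, stood at 218 CPM in uninjured replicate 2, at 0 and 141 CPM at day 3 and at 31.9 CPM at day 5. Apoe, a lipid carrier, stood at 813 CPM in uninjured replicate 2, at 102 and 1801 CPM at day 3 and at 735 CPM at day 5. The larger day 3 library thus stood 1.29-fold below uninjured replicate 2 in Ccr2 and above it in Apoe, while the smaller one held little of either. The 11 antigen presentation genes with 10 UMIs had 0 higher and 2 lower (H2-Aa and Ciita), with a median log2 ratio of -1.05, and the 11 monocyte genes 0 higher and 2 lower (Ccr2 and Fn1), with a median of 0.22.

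Members with Ccr2, with Cd163 and with class II genes were also counted one by one. In uninjured replicate 2, 10 members held Ccr2, 14 Cd163 and 3 both. In day 3 replicate 2, 168 of 308 held Ccr2, 26 Cd163 and 10 both, and 137 held a class II gene. In day 3 replicate 1, 1 of 50 members held Ccr2 and 8 held Cd163, and at day 5, 20 of 218 held Ccr2, 16 Cd163 and 0 both. Members of 1 library share its depth, and these counts are given without a test.

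To compare members with the other nuclei of the same libraries, the day 3 change in members was tested against that in nuclei without immune UMIs, with each library as a block. Of 12449 genes, 38 had a higher change in members (0.305%) and 76 a lower one (0.610%). Among list members, mitotic genes had 7 of 18 with a lower change (Cenpf, Cenpe, Kif15, Knl1, Mki67, Kif20b and Bub1b) and antigen presentation genes 4 of 11 (H2-Aa, Cd74, H2-Eb1 and H2-Ab1). The 7 mitotic genes rested on few UMIs in members of uninjured replicate 2. They stood there between 19.4 CPM (Bub1b) and 62.9 CPM (Cenpf), where 1 UMI is worth 4.84 CPM. Mki67, a marker of cycling cells, stood at 33.9 CPM in members of uninjured replicate 2 and at 51.0 and 35.9 CPM at day 3, while in nuclei without immune UMIs it stood at 1.67 CPM before and 34.0 and 56.3 CPM at day 3 (difference of changes -4.31, adjusted p = 0.00708). Pparg, a lipid-sensing factor, had a higher change in members (3.71, adjusted p = 0.0232), as it stood at 77.4 CPM in members of uninjured replicate 2 and 43.7 and 117 CPM at day 3, and at 235 against 22.5 and 22.4 CPM in nuclei without immune UMIs. Hgf, the hepatocyte growth factor, also had a higher change (3.06, adjusted p = 0.0318), at 29.0 CPM against 102 and 89.4 CPM in members and 24.7 against 3.14 and 17.0 CPM in the others. For Mki67 and Pparg the nuclei without immune UMIs moved more than the members did, and the cell types of those nuclei differ between days. Without day 3 replicate 2 the count of genes was 15 in all, without uninjured replicate 2 it was 57, and without the block 4, against 114. Without uninjured replicate 1 it was 77 (20 higher and 57 lower), where Mki67 (adjusted p = 0.0218) and Pparg (adjusted p = 0.00789) were called and Hgf (adjusted p = 0.117) was not, and the mitotic and antigen presentation lists had 5 and 3 genes with a lower change.

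Days 5 and 7 had 1 library each and no test. The files of day 5 and day 7 listed more genes (32287 and 32285) than those of the uninjured libraries (31055). The part of this difference in the folds was not tested. At day 5, 120 of 3782 genes with at least 100 CPM (3.17%) lay over 4-fold above both uninjured libraries and 40 (1.06%) over 4-fold below both, with 10 CPM added. Against uninjured replicate 2 alone, 135 of 2802 genes (4.82%) lay above and 91 (3.25%) below. Furthest above were Tnc, Postn, Umad1, Xist and Clec4n. Tnc and Postn, matrix proteins of activated stromal cells, stood at 808 and 687 CPM in members and at 1420.2 and 2293 CPM in nuclei without immune UMIs of that library. Clec4n, which encodes the fungal receptor dectin-2, stood at 4.84 CPM in members of uninjured replicate 2, 21.8 and 168 CPM at day 3, 364 CPM at day 5 and 214 CPM at day 7, with 3.11 CPM in nuclei without immune UMIs at day 5. Umad1 stood at 0 CPM in members of both uninjured libraries, 116 and 4.75 CPM at day 3, 290.2 CPM at day 5 and 107 CPM at day 7, and the nuclei without immune UMIs of the day 3 libraries held it at 123 and 5.77 CPM. In members, Umad1 was thus at 107 CPM or more only in day 3 replicate 1, day 5 and day 7, whose files list more genes. Furthest below were AC149090.1, Ttn, Cd226, Negr1 and Dmd, of which AC149090.1 was listed at 0 in all nuclei compared at day 5 and Ttn and Dmd are myofibre genes.

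At day 7, 207 of 4195 genes (4.93%) lay above and 352 (8.39%) below by the same measure, with 11 members in which 3 UMIs are worth 160 CPM. Some genes counted as above held only 2 UMIs (107 CPM) at day 7, under that floor. Some counted as below held 0 UMIs, which allows up to 160 CPM. The part of depth in these counts was not tested. Against uninjured replicate 2 alone, 228 of 3296 (6.92%) lay above and 324 (9.83%) below. Furthest above were Atp6v0d2, Gm13710, Gpnmb, Xist and Hebp1. Atp6v0d2, a subunit of the proton pump that is abundant in osteoclasts, stood at 587 CPM (11 UMIs) at day 7, at 70.2 CPM at day 5, at 14.6 and 20.7 CPM at day 3 and at 0 in both uninjured libraries. The A-gene nuclei held Atp6v0d2 at 768 CPM at day 7 and 420 CPM at day 5. Gpnmb is an A gene and is given as a description, at 961 CPM (18 UMIs) at day 7 against 33.9 CPM in uninjured replicate 2. Furthest below were Chn2, Sgcd, Stxbp6, mt-Co1 and Zbtb16, each with 0 UMIs at day 7.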

How the data were processed

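The deposited files are UMI counts per gene and nucleus, which the authors made from the reads with Cell Ranger on mouse genome mm10. The file headers name version 6.0.0 for uninjured replicate 1, day 5 and day 7, and 7.1.0 for the others. The files listed 31055 genes for both uninjured libraries and day 3 replicate 2. They listed 32285 genes for day 3 replicate 1 and day 7, and 32287 for day 5. The part of these differences in the comparisons was not tested. A barcode was kept if it had from 200 up to 5000 genes, less than 2% of UMIs from mitochondrial genes and less than 1.5% from Rps and Rpl genes, and the 30406 genes common to all 6 libraries were compared.

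UMIs of members were summed per library and expressed as CPM. Cells of a library are not replicates. The sums were tested with edgeR 4.0.16 (TMM, filterByExpr, quasi-likelihood test, Benjamini-Hochberg adjustment, threshold 0.05), after the code was run on simulated counts. The simulated counts were given a smaller spread than was estimated in these data, and no result here rests on them. In the day 3 test the median prior degrees of freedom were infinite, against 2 residual ones. The spread used was therefore mostly one shared over genes, and not that of each gene. Standard errors were taken from the fold change and its F statistic. The rule for the members and the gene lists were chosen with earlier results of these data known. Genes were named by rule: the 10 largest called changes in each direction, the 15 leading genes of members, the 5 furthest past 4-fold at days 5 and 7, called list genes and the rule's own genes. Other list genes, such as Csf1r, Cd163, Stab1, Mertk and Apoe, were named outside this rule to describe their levels. Stxbp6 and Psd3 were picked after their values were seen. Shares carry exact Clopper-Pearson intervals (95%) and levels exact Poisson intervals. A level of 0 allows up to 3 UMIs. Doublets were marked by Scrublet in scanpy 1.11.5 and kept. Gene coordinates and promoters came from GRCm38.p6.

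Alternatives were RLE size factors, DESeq2 1.42.0, no filter on low counts, M of at least 3 or 6, doublets removed, members low in other-cell UMIs, sums thinned to 5034 UMIs, looser mitochondrial and ribosomal limits, other denominators, and each library left out. The count without an upper gene limit and the counting-interval comparison were added after the data were seen. A few genes are not reported here.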

Additional observations from a re-analysis of the deposited data

Results flagged for a closer look

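The change at day 3 differed between Mrc1-high macrophages and nuclei without immune UMIs for 38 genes with a higher and 76 with a lower change in the macrophages, by edgeR's test of the difference itself. Among the lower ones were Ccl2, a monocyte-attracting chemokine (difference of log2 changes -6.78, adjusted p = 9.03e-07), C5ar1, the C5a receptor (-6.69, adjusted p = 0.000312), and Cenpf, a kinetochore protein (-6.31, adjusted p = 1.56e-10). Ccl2 stood at 91.9 CPM in members of uninjured replicate 2 and 29.1 and 95.02 CPM at day 3, and at 0.185, 5.76 and 37.1 CPM in nuclei without immune UMIs. C5ar1 stood at 135, 21.8 and 81.6 CPM in members and at 0, 0.524 and 6.49 CPM in the other nuclei. In members, the Ccl2 level of uninjured replicate 2 thus lay between those of the 2 day 3 libraries. In the other nuclei of uninjured replicate 2, Ccl2 and C5ar1 were at or under 0.185 CPM, so the size of these 2 differences depends on levels near 0. Cenpf stood at 62.9, 7.28 and 14.7 CPM in members and at 0.927, 18.8 and 31.0 CPM in the other nuclei. Ifit2, an interferon-induced gene, was among the higher ones (4.45, adjusted p = 0.0134), with 1, 1 and 109 UMIs in members of these 3 libraries. Without uninjured replicate 1 the counts were 20 and 57, and Ccl2, C5ar1 and Cenpf were still called but Ifit2 was not (adjusted p = 0.0964). The cell types among nuclei without immune UMIs differ between days, and the part of this in the counts was not tested. No group held the 4 libraries that a search for outlying samples needs.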

How the results depend on the processing

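The day 3 counts moved with most choices. Against 1 gene higher and 5 lower, DESeq2 called 0 and 1, no filter on low counts 0 and 27, M of at least 6 called 30 and 50 (uninjured replicate 1 then held no member), removal of marked doublets 2 higher, sums thinned to the smallest library 0 and 0 with 17 genes tested, and no upper gene limit, chosen after seeing the data, 7 higher. Leaving out each library in turn gave 0 to 9 genes higher and 0 to 43 lower. The counts of 9 and 43 arose without uninjured replicate 1, and without day 3 replicate 2 there were 0 and 0, with 125 genes at an unadjusted p under 0.05. DESeq2 had 74 such genes, and edgeR had 1 on the thinned sums, 1120 without a filter, 998 without uninjured replicate 2 and 65 without day 3 replicate 1. Of the 6 called genes, Gm28653 lost its call in 7 of 12 alternatives in which it was tested, Plxna4 in 6 of 12, Negr1 and Tmod1 in 5 of 12, Kcnq1 in 5 of 11 and Cd226 in 2 of 11, with 0 reversed, and none of the 6 was called without either day 3 library. None of the 6 passed the count filter in members low in other-cell UMIs or on thinned sums, so these gave no value for them. The difference in share of 10.7 percentage points became -1.87 with immune nuclei as denominator (-19.3 against uninjured replicate 2 alone, chosen after seeing the data), and leaving out each library gave 5.08 to 16.3. The same difference was 6.98 with the looser mitochondrial and ribosomal limits and 5.41 with nuclei thinned to 1000 UMIs. In nuclei with fewer than 5 myofibre UMIs it was 16.1. Against 114 genes with another change than in nuclei without immune UMIs, 4 remained in number without the block for library, and 15 to 117 with each library left out. The count of 448 genes with intervals apart was 67 in members low in other-cell UMIs. Against uninjured replicate 2 alone, also chosen after seeing the data, the genes over 4-fold above and below were 135 and 91 at day 5 (120 and 40 with both uninjured libraries) and 228 and 324 at day 7 (207 and 352). The causes were not tested. No paired analysis was possible because the replicate numbers were given in accession order and tie no libraries together. Depth limits uninjured replicate 1 (5034 UMIs in members) and day 7 (18735 UMIs), where a level of 0 allows up to 596 and 160 CPM.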
